A study of Bos taurus with 12 samples.

Results

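ENSBTAG00000052305 and ENSBTAG00000018189 are 2 of the 22372 genes in the table of bovine stromal vascular cells (SVC) differentiated for 12 days. They were chosen by their measured levels, which were near 0 in the full reduced differentiation medium (rDM) and high when rosiglitazone was left out. Their levels in those media are therefore given as a description, with no test. No annotation used here paired either identifier with a symbol, a position, a sequence or a protein, so they are given by identifier only. Their functions are not described for the same reason.

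SVC are the mixed stromal cells left when fat tissue is digested and the fat-filled cells are removed, and they include precursors of adipocytes. The labels call the cells MSC, and the study took them from fat under the skin of the brisket of Belgian Blue animals, whose sex and age its methods give in different ways. Cells of 3 donors (replicates A, B and C) were each differentiated in 4 serum-free media, which gave 12 libraries and 3 for each medium. rDM held insulin, rosiglitazone, hydrocortisone and progesterone, whereas rDM 0% Ins lacked insulin, rDM 0% Ros lacked rosiglitazone and rDM 0% HC/PR lacked both steroids. The remaining base medium was shared by all 4. Each donor was also 1 batch of mRNA extraction and cDNA synthesis, so a donor and a batch cannot be told apart. Cell type markers could not be looked up by symbol, so the labelled cell type was not checked here.

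Rosiglitazone is a synthetic ligand of PPARγ, the nuclear receptor that drives the adipocyte programme. Insulin acts through its own receptor to promote glucose uptake and lipid storage. Hydrocortisone is a glucocorticoid and binds the glucocorticoid receptor, and the study treats progesterone as an activator of the same receptor. The libraries hold the RNA of all cells in a culture, so that more cells expressing a gene and more RNA per cell cannot be told apart.

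Levels are CPM, a gene's reads scaled to a fixed library size and not corrected for length, from the batch-corrected table of the authors. The values rose in steps of 1 read, from which whole reads were recovered for every library, with totals between 295288 and 1107442 per library. These reads are counts after the batch correction and not reads as sequenced. At 3 reads, the limit that a count of 0 allows, a level was between 2.71 and 10.2 CPM. Intervals given for single libraries are exact Poisson intervals at 95% on these corrected counts. Like this limit, they take in counting error alone. They take no account of the batch correction, or of amplified copies of a molecule that were counted as separate reads.

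ENSBTAG00000052305 was all but unread in rDM, was read in each donor without rosiglitazone, and varied widely between donors in the other deprived media. In rDM it had 1 read in donor A, at 0.903 CPM, and 0 reads in donors B and C, where the limit is 4.53 and 7.21 CPM. Without rosiglitazone it stood at 226 CPM in donor A, 116 CPM in donor B and 118 CPM in donor C. All 3 of these libraries lay above all rDM libraries, and donor A lay above the others, with an interval of 187 to 270 CPM against 82.3 to 160 and 86.1 to 158 CPM. The rDM library of donor A was the deepest of the 12, with 1107442 recovered reads, and the rosiglitazone-free library of the same donor had 527409.

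Without insulin, ENSBTAG00000052305 was at 5.40 CPM in donor A, 188 CPM in donor B and 77.9 CPM in donor C. Donor A was near the limit with 3 reads (interval 1.11 to 15.8 CPM), whereas donor B had 84 reads and was higher than its own library without rosiglitazone. Without HC/PR the gene was at 13.3 CPM in donor A, 0 CPM in donor B and 82.2 CPM in donor C. Donor B had no read in this library, where the limit is 7.98 CPM, while donor C had 43 reads and was slightly higher than its library without insulin. By measured levels the order of the media thus differed between donors, but the counting intervals overlapped at each departure from the order of the means. In donor A they were 5.73 to 26.2 CPM without HC/PR and 1.11 to 15.8 CPM without insulin. In donor B they were 150 to 232 CPM without insulin and 82.3 to 160 CPM without rosiglitazone. In donor C they were 59.5 to 111 CPM without HC/PR and 49.4 to 117 CPM without insulin. In donor B the level without HC/PR could not be told from rDM at this depth.

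ENSBTAG00000018189 was low in rDM and was read in each donor without rosiglitazone and without insulin. In rDM it was at 0.903 CPM in donor A, 4.53 CPM in donor B and 9.61 CPM in donor C, from 1, 3 and 4 reads. Without rosiglitazone it was at 192 CPM in donor A, 223 CPM in donor B and 202 CPM in donor C. These 3 libraries lay within each other's counting intervals, which spanned 156 to 281 CPM in all, and lay above each of the 9 other libraries.

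Without insulin, ENSBTAG00000018189 was at 142 CPM in donor A, 22.3 CPM in donor B and 125 CPM in donor C. Without HC/PR it was at 0 CPM in donor A, 79.8 CPM in donor B and 17.2 CPM in donor C. Donor B was the lowest library without insulin and the highest without HC/PR, and donor A went from 79 reads in the former medium to none in the latter, where the limit is 4.98 CPM.

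**Figure D1:**
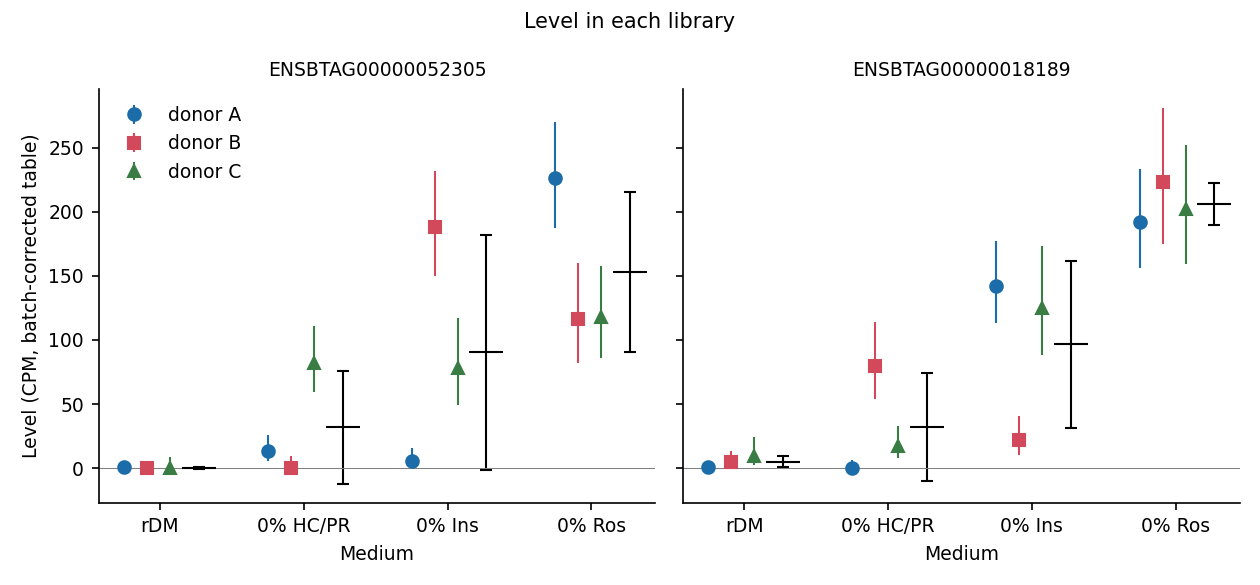
Level in CPM (linear axis) of ENSBTAG00000052305 (left) and ENSBTAG00000018189 (right) in each library, by medium. Coloured points are donors with exact Poisson intervals at 95%, and black bars are the mean ± SD of 3 donors. Without insulin the donors spread from 5.40 to 188 CPM for ENSBTAG00000052305 and from 22.3 to 142 CPM for ENSBTAG00000018189. Without HC/PR they spread from 0 to 82.2 CPM and from 0 to 79.8 CPM. The points in rDM and without rosiglitazone are the values that chose the genes.

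By means, the media ranked rDM 0% Ros, rDM 0% Ins, rDM 0% HC/PR and rDM for both genes. ENSBTAG00000052305 was at 153 ± 62.6 CPM without rosiglitazone, 90.3 ± 91.7 CPM without insulin, 31.8 ± 44.1 CPM without HC/PR and 0.301 ± 0.521 CPM in rDM (SD, n = 3). ENSBTAG00000018189 was at 206 ± 16.3 CPM, 96.6 ± 64.9 CPM, 32.3 ± 42.0 CPM and 5.02 ± 4.37 CPM in the same order (SD, n = 3). This graded order describes the means, and single donors departed from it. The order of the means for ENSBTAG00000052305 turned when 1 donor was left out. Without donor A its mean was 133 CPM in rDM 0% Ins and 117 CPM in rDM 0% Ros, and without donor B it was 47.7 CPM in rDM 0% HC/PR and 41.6 CPM in rDM 0% Ins. Without HC/PR it was 6.64 CPM when donor C was left out, and the mean of ENSBTAG00000018189 was 8.60 CPM without donor B and 48.5 CPM without donor A. In rDM the mean of ENSBTAG00000018189 was 2.72 CPM without donor C, and that of ENSBTAG00000052305 was 0 CPM without donor A. By measured levels, only donor C in ENSBTAG00000018189 showed the full order of the means. The libraries without insulin and without HC/PR overlapped for both genes, as did those without HC/PR and in rDM. The libraries without rosiglitazone and without insulin overlapped for ENSBTAG00000052305 and did not for ENSBTAG00000018189.

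The 9267 genes tested had at least 5 CPM in at least 3 libraries, which ENSBTAG00000052305 met in 8 libraries and ENSBTAG00000018189 in 9. Each library without rosiglitazone lay above each rDM library for both genes and for 15.3% of the genes tested, and each library without insulin lay above each rDM library for both and for 15.4%. The separation without insulin was not beyond counting error. For ENSBTAG00000052305 donor A was at 5.40 CPM, below the limit of 7.21 CPM in rDM of donor C. For ENSBTAG00000018189 the interval of donor B (10.7 to 41.1 CPM) overlapped that of donor C in rDM (2.62 to 24.6 CPM). Each library without rosiglitazone lay above each without HC/PR for both genes and for 9.78% of the genes tested, and above each without insulin for ENSBTAG00000018189 and 7.09%. Nothing is read from these counts, since the levels in rDM and without rosiglitazone chose the genes. For the remaining pairs neither gene was separated. The shares of the genes tested were 7.65% for rDM 0% HC/PR above rDM and 13.0% for rDM 0% Ins above rDM 0% HC/PR.

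The differences within donors are given on the log2(CPM + 1) scale. At low levels this scale makes changes look smaller. Without rosiglitazone against rDM, ENSBTAG00000052305 was higher by 6.90 in donor A, 6.87 in donor B and 6.89 in donor C, the largest mean difference of the 9267 genes tested. The closeness of donor A to the others depends on the pseudocount of 1, set against its 1 read in rDM. Donors B and C both had 0 reads in rDM and stood at 116 and 118 CPM without rosiglitazone. With a pseudocount of 0.1 the mean was 9.40. ENSBTAG00000018189 differed by 6.66, 5.34 and 4.26 in donors A, B and C, and its mean of 5.42 was the second largest. Against this, the median gene differed by 0.10. Summed over donors, ENSBTAG00000052305 had 202 reads without rosiglitazone and 1 in rDM, a ratio of 357 after scaling to depth, with an exact counting interval at 95% of 63.4 to 14181, which rests on that single corrected read in donor A. The interval takes no account of the batch correction, and an uncorrected transcript of similar pattern that no table ties to the gene had 9.9 estimated reads in that library. For ENSBTAG00000018189 the reads were 251 and 8, a ratio of 55.5 (27.7 to 130). These values describe the pattern for which the genes were chosen.

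Without insulin against rDM, the differences were 1.75, 7.56 and 6.30 in donors A, B and C for ENSBTAG00000052305. For ENSBTAG00000018189 they were 6.23, 2.08 and 3.57. Both genes were thus higher in all 3 donors by their measured levels, but donor A had the smallest difference in the first gene and the largest in the second. For ENSBTAG00000052305 the counting intervals overlapped in donor A, at 1.11 to 15.8 CPM without insulin and 0.0229 to 5.03 CPM in rDM. For ENSBTAG00000018189 they overlapped in donor B, at 10.7 to 41.1 CPM without insulin and 0.935 to 13.3 CPM in rDM. Without HC/PR against rDM, the differences were 2.91, 0.00 and 6.38 for ENSBTAG00000052305 and -0.93, 3.87 and 0.78 for ENSBTAG00000018189. By measured levels each gene was higher in 2 of the 3 donors, and both exceptions were at or near 0 reads. For ENSBTAG00000052305 the exception was donor B, with 0 reads in both media. For ENSBTAG00000018189 it was donor A, with 0 reads without HC/PR and 1 in rDM. In donor C the counting intervals of ENSBTAG00000018189 overlapped, at 7.86 to 32.6 CPM without HC/PR and 2.62 to 24.6 CPM in rDM.

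**Figure D2:**
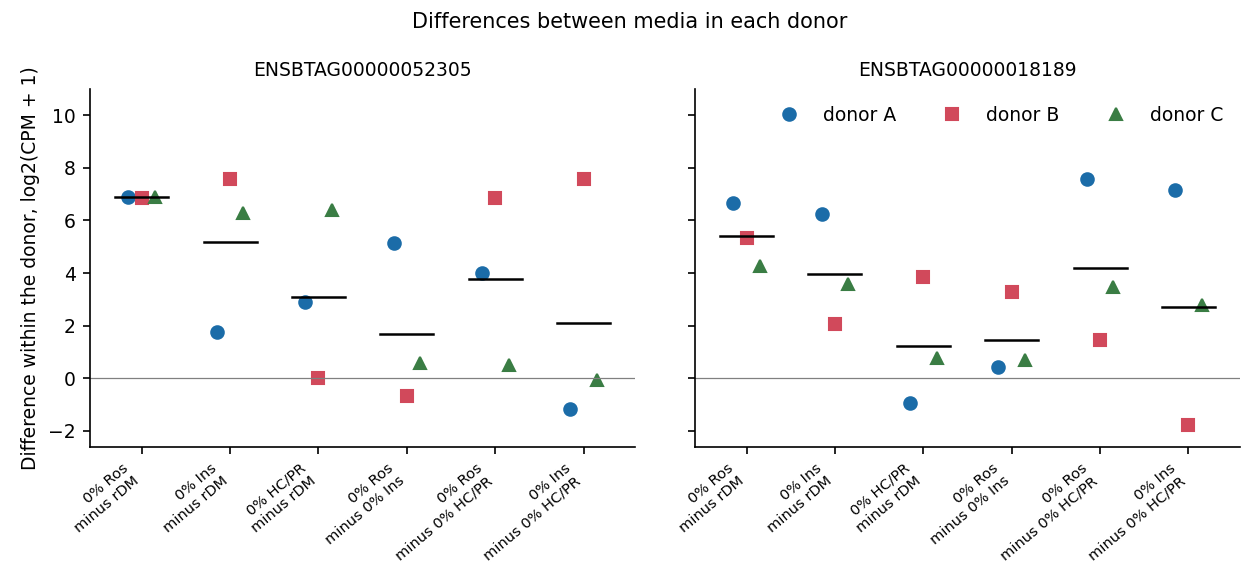
Difference between 2 media within each donor, in log2(CPM + 1), for ENSBTAG00000052305 (left) and ENSBTAG00000018189 (right). Points are donors and black lines their means. For 0% Ros minus rDM on the left, the closeness of donor A to donors B and C depends on the pseudocount of 1 against 1 read in rDM. The points for 0% Ins minus 0% HC/PR lie on both sides of 0 in both genes.

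The comparison of rDM 0% Ins with rDM 0% HC/PR uses the 2 media that the rule for choosing the genes did not name. Levels in these 2 media were also known when the genes were chosen, so the test is not independent of that choice. The comparison was tested with limma on log2(CPM + 1) across all 9267 genes, with the donor as a block. The spread was estimated over all 12 libraries, so that the standard errors also draw on the rDM and rDM 0% Ros values that chose the genes. Neither gene passed an adjusted p of 0.05. ENSBTAG00000052305 differed by 2.11 (standard error 1.31, interval at 95% from -0.71 to 4.93, adjusted p = 0.553). It was higher without insulin in 1 of 3 donors, by 7.56 in donor B, while donors A and C differed by -1.16 and -0.08. ENSBTAG00000018189 differed by 2.72 (standard error 1.09, interval at 95% from 0.37 to 5.08, adjusted p = 0.313), with 7.16 in donor A, -1.79 in donor B and 2.79 in donor C. These intervals are not adjusted for the number of genes tested. Before adjustment the limma p was 0.13 for ENSBTAG00000052305 and 0.0267 for ENSBTAG00000018189. With the 6 libraries of the 2 media alone, the standard errors were 1.27 and 1.18 and the adjusted p 0.58 and 0.415. In this comparison 1.12% of the genes tested were called, 60 higher without insulin and 44 higher without HC/PR, and the median gene differed by 0.18. The count of 104 called genes was not stable, and was 230 with no replicate block, 9 without the trend of the spread on the level, 33 without donor B and 11 without donor C. Leaving out 1 library gave 31 to 149, with the lowest without donor C in rDM 0% Ins. In donor B the 2 media were sequenced under different library numbers (1 and 2), whereas donors A and C each had 1 number for both. With the library number added to the fit the differences were 0.74 (adjusted p = 0.904) and 3.83 (adjusted p = 0.197). Single donors decided both values. Without donor B, ENSBTAG00000052305 turned to -0.62 (adjusted p = 0.874) and ENSBTAG00000018189 reached 4.98 (adjusted p = 0.0464). Without donor A they were 3.74 (adjusted p = 0.331) and 0.50 (adjusted p = 0.845), and without donor C ENSBTAG00000052305 was at 3.20 (adjusted p = 0.719). Over all alternatives the adjusted p from the fits across all genes ran from 0.157 to 0.968 for ENSBTAG00000052305 and from 0.0464 to 0.845 for ENSBTAG00000018189.

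The scatter over donors was compared with that of other genes of similar mean level in the same medium, those within 2-fold of the gene's mean. Without insulin, the SD of log2(CPM + 1) over donors was 2.53 for ENSBTAG00000052305 and 1.46 for ENSBTAG00000018189, where the median gene of similar level had 0.31. Of those genes, 99.6% and 99.1% had a smaller SD. Without HC/PR the SD was 3.21 and 3.22, where the median was 0.42, and 99.7% of genes of similar level had a smaller SD in both cases. Without rosiglitazone it was 0.54 for ENSBTAG00000052305 and 0.11 for ENSBTAG00000018189, above 83.8% and 14.8% of genes of similar level. The values without rosiglitazone were among those that chose the genes, so that their scatter is not set against that in the other media. Since a single library at or near 0 gives a large SD on this scale, the SDs without insulin and without HC/PR rest on the libraries with 0 to 10 reads. These are counts after the batch correction, which can itself move low counts. In donor A without insulin ENSBTAG00000052305 had 3 corrected reads. An uncorrected transcript of similar pattern, which no table ties to the gene, had 12.2 estimated reads there.

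**Figure D3:**
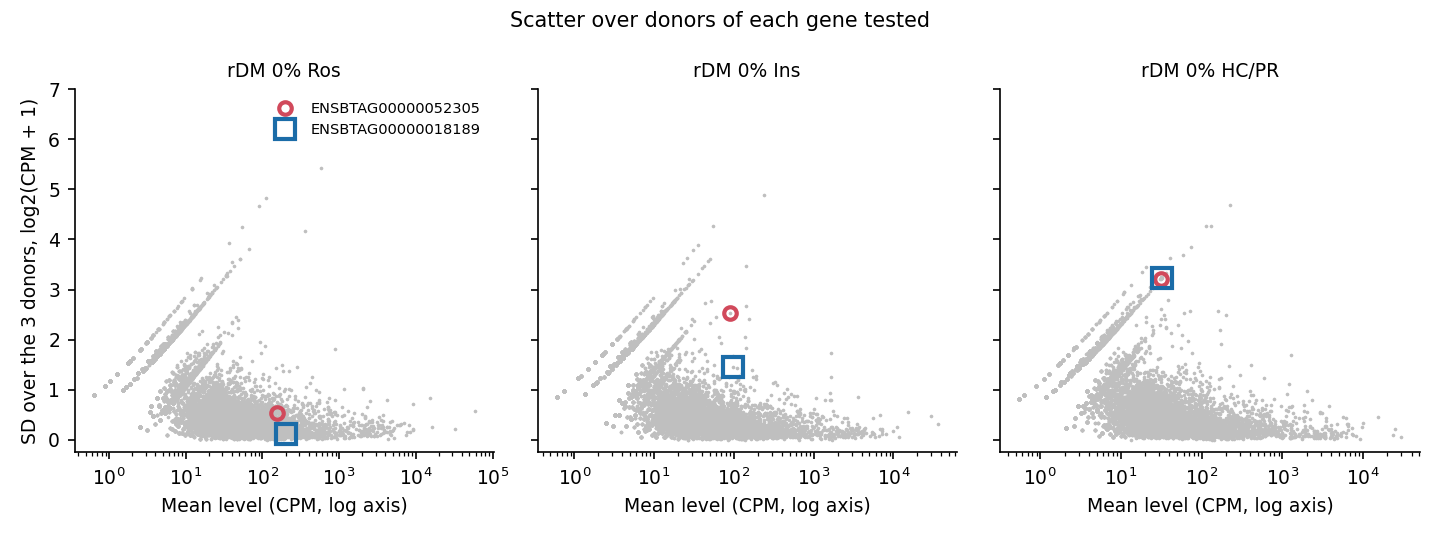
SD over 3 donors in log2(CPM + 1) against mean CPM (log axis) in the 3 deprived media for each gene tested with a mean above 0 (grey), with ENSBTAG00000052305 as red circles and ENSBTAG00000018189 as blue squares. Without HC/PR both lie together at SDs of 3.21 and 3.22, above 99.7% of genes of similar level.

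Over 12 libraries that share donors and batches, Pearson's r between them was 0.50 and Spearman's rho 0.56, as a description. Of these libraries, the 6 in rDM and without rosiglitazone gave the values that chose both genes as low and then high, which raises r. Over the 9 libraries of the deprived media r was 0.17, and over the 6 libraries without insulin and without HC/PR it was -0.16. In these 6 libraries donor B was high for one gene and low for the other in both media. By r, ENSBTAG00000018189 was the gene number 1194 in likeness to ENSBTAG00000052305 among 9266 genes, over the same 12 libraries.

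**Figure D4:**
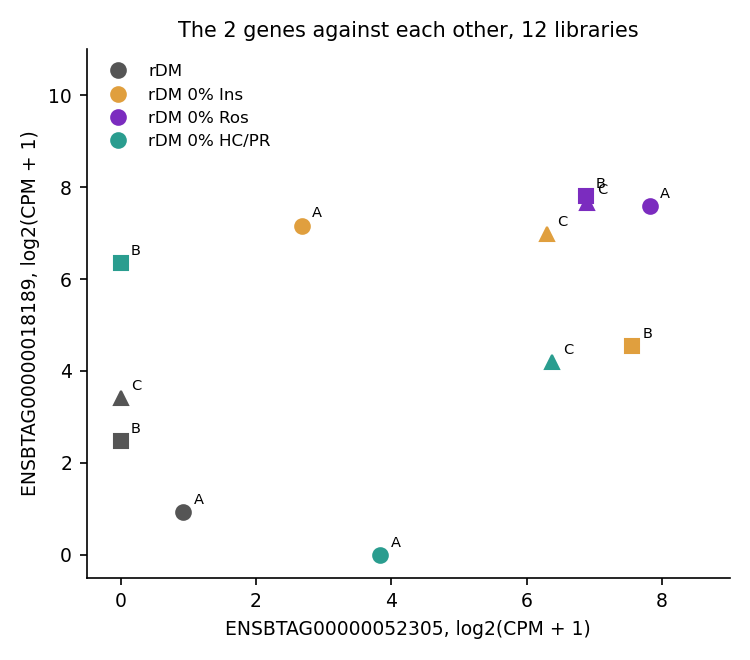
ENSBTAG00000052305 (x axis) against ENSBTAG00000018189 (y axis), both in log2(CPM + 1), in the 12 libraries. Colours are media and letters and marker shapes are donors. The places of the 3 rDM libraries (left) and the 3 libraries without rosiglitazone (top right) follow from how the genes were chosen. Over the other 6 libraries r was -0.16.

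The genes nearest in pattern were named by the highest Pearson's r over 12 libraries, 6 of which gave the values that chose the members. These names depended on single donors. Of the 5 nearest genes of ENSBTAG00000052305, 0 were kept without donor B or without donor C, and of those of ENSBTAG00000018189, 0 were kept without donor A and 1 without donor B or C. For ENSBTAG00000052305 these were ENSBTAG00000027201, ENSBTAG00000011634, ENSBTAG00000015779, ENSBTAG00000048962 and ENSBTAG00000008448, with r from 0.93 to 0.91. The first 4 were low, with means without rosiglitazone of 7.43, 6.46, 12.2 and 12.1 CPM. ENSBTAG00000008448 was at 55.3 ± 17.9 CPM without rosiglitazone and 15.4 ± 5.24 CPM in rDM (SD, n = 3). The most opposite pattern was that of ENSBTAG00000003263 (r of -0.92), which was at 333 ± 26.9 CPM in rDM and 236 ± 16 CPM without rosiglitazone (SD, n = 3), followed by ENSBTAG00000008109 and ENSBTAG00000002412.

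For ENSBTAG00000018189 the nearest were ENSBTAG00000018332, ENSBTAG00000007920, ENSBTAG00000001634, ENSBTAG00000019627 and ENSBTAG00000037778, with r from 0.91 to 0.88. Among them ENSBTAG00000019627 was the most abundant, at 164 ± 20.3 CPM in rDM, 342 ± 111 CPM without insulin, 492 ± 68.8 CPM without rosiglitazone and 171 ± 25.1 CPM without HC/PR (SD, n = 3). ENSBTAG00000005096, ENSBTAG00000016079 and ENSBTAG00000048722 ran most opposite, each with an r of -0.91. ENSBTAG00000016079 was at 969 ± 40.8 CPM in rDM and 510 ± 4.46 CPM without rosiglitazone (SD, n = 3). Each member had 61 genes with an r above 0.8. The 2 lists of 5 nearest genes had no gene in common.

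A stricter form of the pattern was counted over all genes. With at most 3 reads in each rDM library and at least 50 CPM in each library without rosiglitazone, 2 genes were found among all 22372, ENSBTAG00000052305 and ENSBTAG00000004221. ENSBTAG00000018189 fell outside this count through the 4 reads of donor C in rDM. ENSBTAG00000004221 was just inside it, with a lowest level of 51.2 CPM and a mean of 86.0 CPM without rosiglitazone, 43.2 CPM without insulin, 38.8 CPM without HC/PR and 1.40 CPM in rDM. The reverse pattern, with rDM and rDM 0% Ros exchanged, was met by 21 genes. The limits were not equal, since 3 reads came to between 2.71 and 7.21 CPM in the rDM libraries and between 5.69 and 9.18 CPM in those without rosiglitazone.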

How the data were processed

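mRNA of 12 libraries was read as PCR-amplified cDNA on a Nanopore sequencer. The authors mapped the reads with Minimap2 to the bovine transcriptome (ARS-UCD1.2) and quantified them with Salmon, and deposited the resulting estimated counts, one set of transcripts per library. They also deposited CPM values per gene, imported with tximport and corrected for 3 batches with ComBat-seq, a step that can itself move low counts. Versions of these tools are not given in the sources used here. The gene table of RefSeq matched 0 of the 22372 identifiers, so transcripts were not tied to genes, and the marker and pathway lists were not analysed here. The libraries held 302754 to 1153853 estimated reads.

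Reads were recovered from the steps of the CPM values (100% whole within 0.02 reads). Genes that reached 5 CPM in 3 or more libraries were tested with limma 3.58.1 in R 4.3.3 on log2(CPM + 1), with the donor as a block, a trend of the spread on the level, and Benjamini-Hochberg adjustment over 9267 genes. The donor pairs the libraries by the labels, and all 18 pairs of libraries of a donor deviated together in the uncorrected transcripts (r of 0.194 to 0.593), whereas in the batch-corrected genes, which were the values tested, r ran from -0.345 to 0.0411. Alternatives used edgeR 4.0.16 and DESeq2 1.42.0 on the recovered reads. The genes, lists, rules and tests were chosen with earlier results of these data known. The genes to name were the 2 members and, for each, the 5 genes of highest and the 3 of lowest Pearson's r; ENSBTAG00000004221 was named from a count after its values were seen.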

Additional observations from a re-analysis of the deposited data

How the results depend on the processing

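For rDM 0% Ins against rDM 0% HC/PR, neither gene was called in any of the 11 alternatives that kept all donors and libraries of the comparison, and the direction was the same in all of them. The log2 difference in these ranged from 0.74 (library number added) to 3.17 for ENSBTAG00000052305 and from 1.59 to 3.83 for ENSBTAG00000018189. Leaving out a donor or a library gave -0.62 to 3.81 for ENSBTAG00000052305 and 0.50 to 4.98 for ENSBTAG00000018189, with adjusted p from 0.0464 to 0.845 for the latter, and the lowest p came without donor B. Without donor B only in rDM 0% HC/PR, it was 0.0504. The count of genes called in this comparison was 104, and it was 230 with no replicate block, 41 with the library number added to the block, 9 without the trend of the spread (chosen after seeing the data) and 11 to 149 with a donor or a library left out. The lowest, 11, came without donor C. Without donor B it was 33, and leaving out single libraries gave 33 (donor B, rDM 0% Ins), 31 (donor C, rDM 0% Ins) and 37 (donor C, rDM 0% HC/PR). With edgeR on the recovered reads 87 genes were called under TMM scaling and 91 under DESeq2 size factors, and DESeq2 called 129. Leaving out the block changed no call of the 2 genes.

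The difference between rDM 0% Ros and rDM depended on the pseudocount. For ENSBTAG00000052305 it was 9.40 with 0.1 and 3.92 with 10, and for ENSBTAG00000018189 it was 3.88 with 10. This follows from values at or near 0 in rDM. Without donor A, ENSBTAG00000052305 differed by -0.05 between rDM 0% Ros and rDM 0% Ins, and without donor B, ENSBTAG00000018189 differed by -0.07 between rDM 0% HC/PR and rDM. The r between the 2 genes was 0.50, and 0.42 to 0.60 with a donor left out. Of the 5 nearest genes of ENSBTAG00000052305, 0 to 3 were kept when a donor was left out, 1 with Spearman's rho and 4 with a pseudocount of 10. For ENSBTAG00000018189 these were 0 to 1, 1 and 1. The count of genes with the pattern was 4 at 20 CPM and 1 at 100 CPM. Uncorrected reads of the members' transcripts were not run, since no table tied them to the genes.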

Other observations

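The uncorrected transcript files hold 1 transcript whose estimated reads were close to those of ENSBTAG00000052305. ENSBTAT00000083733.1, 3247 bases long, had an r of 0.96 with the gene over 12 libraries, the highest of the 2166 transcripts whose total was within 2-fold of the gene's, and it was chosen after its values were seen. No table used here ties it to that gene, and whether it is a transcript of the gene was not tested. Its estimated reads in donor B were 0.0 in rDM, 83.5 in rDM 0% Ins, 31.2 in rDM 0% Ros and 0.0 in rDM 0% HC/PR, where the gene had 0, 84, 38 and 0 reads in the corrected table. In donor C they were 0.0, 20.8, 40.1 and 40.5, against 0, 23, 45 and 43. In donor A they were 9.9, 12.2, 106.2 and 22.7, against 1, 3, 119 and 8. The low values thus differed most in donor A, where rDM was at 8.55 CPM in the uncorrected transcript and at 0.903 CPM in the corrected gene.

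Among the transcripts compared, those with a total within 2-fold of the gene's, none followed ENSBTAG00000018189 as closely. The nearest of 1972 transcripts of like total, ENSBTAT00000027820.4, had an r of 0.92 but between 44 and 102 estimated reads in the rDM libraries, where the gene had 1 to 4.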
